A study of Mus musculus with 6 samples.

Results

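The alpha and beta tubulin isotypes are the 10 genes Tubb3, Tubb2a, Tubb2b, Tubb4a, Tubb4b, Tubb5, Tubb6, Tuba1a, Tuba1b and Tuba1c, taken by symbol from a table of 21878 rows. All 10 have a row, and 9 reached the mean of 1 FPKM over the libraries that was needed for testing, beside 10721 genes tested in all. FPKM counts the fragments of a gene relative to its transcript length and to the mapped fragments of its library, so levels can be compared between genes. RNA was sequenced from Neuro-2a cells, a mouse neuroblastoma line, in 6 libraries. The 3 groups of 2 libraries are cells labelled wild type (control), cells overexpressing lncPim1, a long noncoding RNA, and cells treated by RNA interference against it (knockdown). The labels name no empty vector, scrambled RNA, dose or time for any group, and no differentiation or injury treatment. Nothing in them shows that both libraries of a group grew as separate cultures, and the p-values therefore describe the spread of these 6 libraries alone, which may be technical. No row carries the name lncPim1, and its level was not analysed here.

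Microtubules are built from dimers of alpha and beta tubulin, and mammals carry several genes for each. The bodies of the proteins are nearly the same, while the short acidic tail at the C-terminal end differs between most isotypes and is where glutamate chains are added. Tubb3 is the beta isotype used as a marker of neurons, Tuba1a, Tubb2a and Tubb2b are abundant in the developing nervous system, and Tubb4a belongs to mature neurons and oligodendrocytes. Those 5 are called neuronal isotypes here. The other 5, Tubb4b, Tubb5, Tubb6, Tuba1b and Tuba1c, are made in many tissues and are called general isotypes. This division is a convention and is not exclusive, since Tubb5 is also abundant in neural progenitors.

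The ends of the coding sequences of 5 beta isotypes are shown because they encode that tail. Each line gives the last 20 codons and the stop codon from GENCODE release M21, 5′ to 3′, with the in-frame codons GAA and GAG, which encode glutamate, in capitals.
Tubb3: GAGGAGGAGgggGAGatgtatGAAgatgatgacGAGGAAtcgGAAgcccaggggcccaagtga
Tubb2a: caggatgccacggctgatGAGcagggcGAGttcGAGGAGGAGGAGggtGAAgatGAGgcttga
Tubb2b: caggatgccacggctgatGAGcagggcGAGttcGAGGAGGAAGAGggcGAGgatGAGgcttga
Tubb5: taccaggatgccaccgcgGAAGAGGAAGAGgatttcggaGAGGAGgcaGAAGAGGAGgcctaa
Tubb4b: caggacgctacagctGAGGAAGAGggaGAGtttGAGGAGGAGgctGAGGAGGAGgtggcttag
The last 20 codons held 8 glutamate codons in Tubb3, Tubb2a and Tubb2b, 9 in Tubb5 and 10 in Tubb4b. The printed stretches of Tubb2a and Tubb2b differ only in synonymous codons. Tubb3 ended on AAG, a lysine codon, where the other beta isotypes printed ended on GCT or GCC. Over the whole coding sequence Tubb2a and Tubb2b were 96.5% identical and Tuba1a and Tuba1b 98.3%, while Tubb3 was 81.4% identical to Tubb5.

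That likeness bears on how well a read can be assigned. Of the windows of 100 bases along the coding transcript, none of Tubb3, Tubb5, Tubb6 or Tubb4a occurred in a transcript of another gene. The share found elsewhere was 73.0% for Tuba1b, 65.8% for Tuba1a, 53.4% for Tuba1c, 36.9% for Tubb2a, 30.6% for Tubb4b and 27.7% for Tubb2b. The most frequent partners were sister isotypes (Tubb2a with Tubb2b, and the alpha genes among themselves), pseudogenes such as Tubb4b-ps1, and predicted genes. Exons of Tubb4b also overlap Fam166a, and exons of Tuba1b the antisense gene Gm41396, on the opposite strand. Exons of Tuba1a and Tuba1b overlap Gm49450 on the same strand. The treatment of reads with several matches and the strand setting were not given in the sources used here. Values of the alpha isotypes, Tubb2a, Tubb2b and Tubb4b are uncertain in a way that those of Tubb3, Tubb5 and Tubb6 are not.

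**Figure D1:**
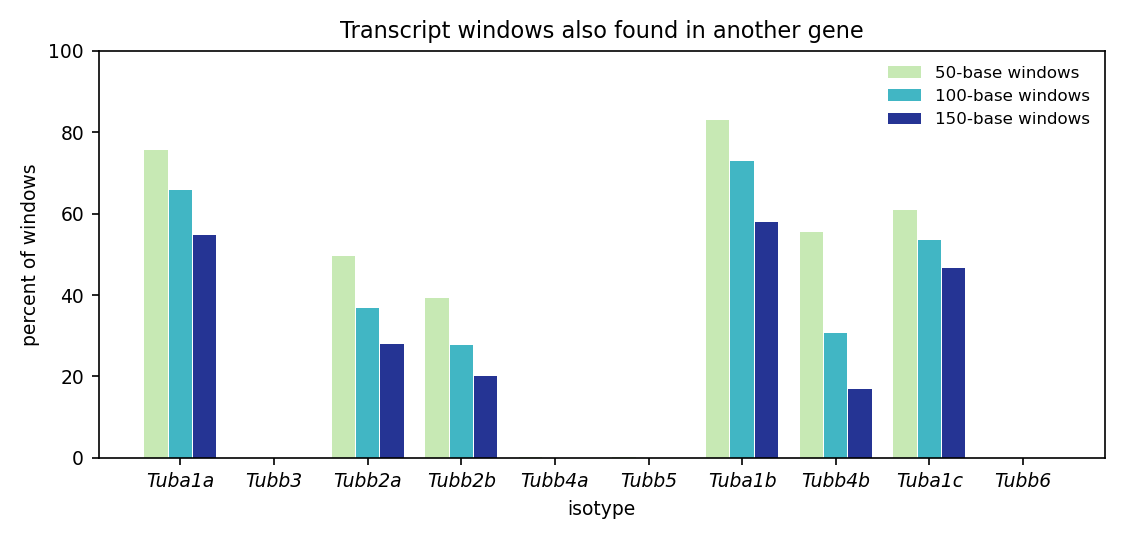
Bars give the percent of 50-, 100- and 150-base windows of each isotype's coding transcript that also occur in a transcript of another gene, on either strand. Tubb3, Tubb5, Tubb6 and Tubb4a stand at or near 0, and Tuba1b is highest, at 83.1% of 50-base windows.

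On build GRCm38, Tuba1b (15:98931425-98934565, minus strand), Tuba1a (15:98949837-98953703, minus strand) and Tuba1c (15:99029891-99038110, plus strand) lie together on chromosome 15. Tubb2a (13:34074274-34078007) and Tubb2b (13:34126748-34130466) are neighbours on the minus strand of chromosome 13. Tubb5 (17:35833921-35838306) and Tubb4a (17:57080066-57087782) are on the minus strand of chromosome 17, Tubb4b (2:25222160-25224702) is on the minus strand of chromosome 2, and Tubb3 (8:123411424-123422015) is on the plus strand of chromosome 8, inside Gm20388, with which it shares no exon. The coding transcript used for each of the 10 genes has 4 exons.

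Over all genes, FPKM summed to 298032 and 305463 for control cells, to 294510 and 303139 for overexpression and to 277508 and 272528 for knockdown. Absolute depth is unknown, and depths relative to control 1, read from the steps of low values, were 0.892 to 1.08. Markers fixed for the line were present for 10 of 12 genes at a mean of at least 1 FPKM, with Phox2a at 147.2 to 236.7 FPKM and Stmn2 at 154.5 to 170.8. Dbh, a noradrenaline enzyme, stood at 0.155 to 0.494 FPKM. Summed over the line's own markers, FPKM was 1004 and 1036 in control cells, 878 and 1009 under overexpression and 844 and 876 under knockdown. Of the 10 tested, 5 fell and 1 rose under knockdown, beside 31.3% lower and 14.8% higher over all tested genes. Under overexpression 1 of the 10 fell and 0 rose, beside 0.849% lower and 0.69% higher. Summed markers of other cells were low in every library, at 1.08 to 1.495 FPKM for fibroblasts, 0.0358 to 0.689 for macrophages and leukocytes, 1.84 to 2.74 for endothelium, 1.14 to 2.99 for epithelium and 2.14 to 2.71 for glia. Digestive-tract transcripts summed to 26.3 to 41.5 FPKM in the control and overexpression libraries and to 0.609 and 0.817 under knockdown. The part of the lineage markers and of the digestive-tract transcripts in the tubulin results was not tested.

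In control cells Tubb5 was the most abundant member at 844.8 and 874.2 FPKM, which placed its mean over all libraries at rank 24 among the tested genes. Tuba1a followed at 720.5 and 745.8 FPKM, Tuba1b at 473.5 and 510.6 and Tubb3 at 396.8 and 388.4. These 4 levels did not overlap between neighbours in any of the 3 groups. Tubb4b stood at 185.7 and 191.7 FPKM, Tubb2a at 104.8 and 100.6, Tuba1c at 90.5 and 100.4, Tubb6 at 86.4 and 90.5 and Tubb2b at 85.0 and 84.7. Neighbours in that order did not overlap in control cells either, but from Tubb2a to Tubb2b they nearly touched. Under overexpression Tubb6, Tuba1c and Tubb2a overlapped, and under knockdown the order was Tubb6, Tuba1c, Tubb2a and Tubb2b with no overlap. Tubb4a was listed at 0 in 5 libraries and at 0.0419 FPKM in knockdown 1, and was not tested.

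**Figure D2:**
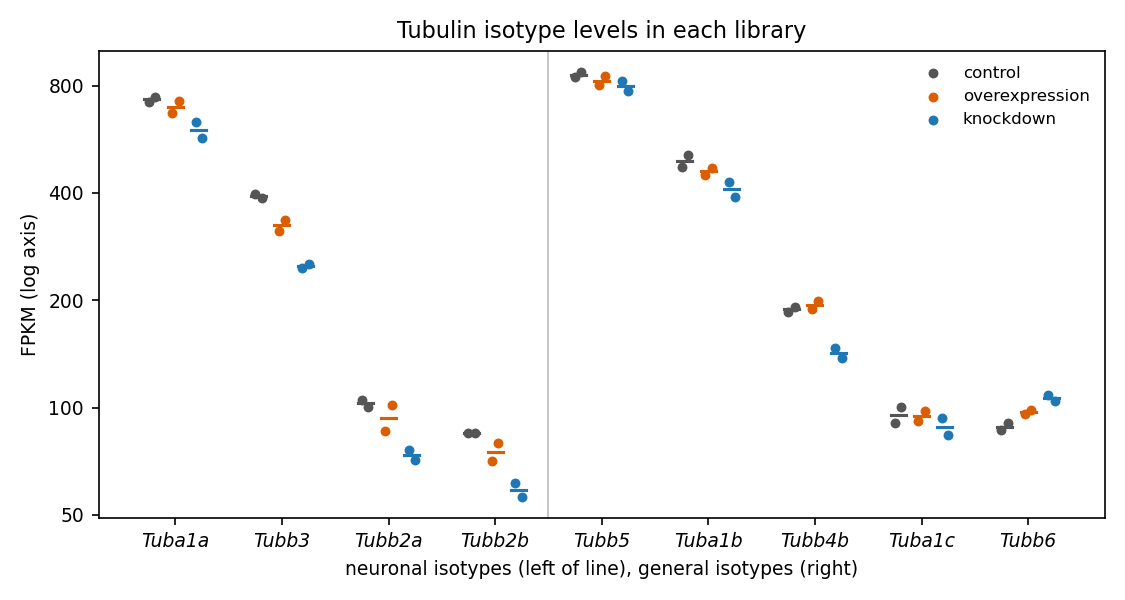
Points give the FPKM of 9 isotypes in each library on a log axis, and short lines give the mean of the 2 libraries of a group. Tubb3 steps down from 392.6 FPKM in control cells to 324.8 under overexpression and 249.4 under knockdown, while Tubb6 steps up from 88.4 to 97.1 and 106.1.

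The first comparison set the knockdown libraries against control and asked how the isotypes stood when lncPim1 was targeted. The 4 neuronal isotypes that could be tested all fell, by 0.29 to 0.65 on the log2(FPKM + 1) scale. Of the 5 general isotypes, Tubb4b and Tuba1b fell, Tubb6 rose, and Tubb5 and Tuba1c did not pass the test. Together 6 of the 9 tested members fell and 1 rose (limma, Benjamini-Hochberg adjusted p under 0.05). Over all tested genes 31.3% were called lower and 14.8% higher, 46.2% in all. Groups did not overlap for 7 members in the lower direction (47.9% of tested genes) and 1 in the higher (26.5%). The members' median log2 fold change was -0.29 and that of all tested genes -0.07. In bulk RNA, fewer cells making an isotype and less of its RNA per cell cannot be told apart.

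Tubb3, the neuronal marker, stood at 245.8 and 253.0 FPKM in the knockdown libraries, against 396.8 and 388.4 in control cells. Every knockdown library was below every control library. The mean fell by 36.5%, with a log2 fold change of -0.65 ± 0.05 (SE, 95% interval -0.77 to -0.53, limma adjusted p = 1.19e-04). None of its windows of 50 bases occurred in a transcript of another gene.

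Tubb2b, a beta isotype of the developing brain, stood at 61.2 and 56.3 FPKM under knockdown against 85.0 and 84.7 in control cells, a log2 fold change of -0.52 ± 0.07 (limma adjusted p = 4.97e-04). Tubb2a, its neighbour on the chromosome, stood at 75.8 and 71.1 FPKM against 104.8 and 100.6, a change of -0.48 ± 0.08 (limma adjusted p = 0.00143). Both genes were lower in every knockdown library than in any control library. Since 36.9% of the windows of 100 bases of Tubb2a and 27.7% of those of Tubb2b occurred in other genes, their separate changes are less certain than their joint one.

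Tuba1a, the main alpha isotype of young neurons, stood at 631.8 and 570.4 FPKM under knockdown against 720.5 and 745.8 in control cells. Its log2 fold change was -0.29 ± 0.07 (limma adjusted p = 0.00733), and the call was lost without knockdown 2 (adjusted p = 0.0674) and without a filter on low values (0.0501). Tuba1b, the general alpha isotype, stood at 428.2 and 391.0 FPKM against 473.5 and 510.6, a change of -0.26 ± 0.06 (limma adjusted p = 0.00932). Its call was lost without control 2 (adjusted p = 0.0708), without knockdown 2 (0.0749) and after quantile normalization (0.0533). Tuba1c, the least abundant of the 3 alpha members, stood at 93.3 and 83.7 FPKM against 90.5 and 100.4, and its libraries overlapped between the groups. Its change of -0.11 ± 0.07 was not called (limma adjusted p = 0.238, 95% interval -0.27 to 0.05) and pointed upward after quantile normalization (0.091).

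Among the general beta isotypes, Tubb4b, found in many tissues and in cilia, stood at 146.6 and 138.1 FPKM under knockdown against 185.7 and 191.7 in control cells. Its change was -0.40 ± 0.05 (limma adjusted p = 5.73e-04). Tubb6, a minor beta isotype, stood at 108.2 and 104.1 FPKM against 86.4 and 90.5, a rise of 0.26 ± 0.05 (limma adjusted p = 0.00297). It was the only one of the 9 tested members whose knockdown libraries both lay above both control libraries. Tubb5, the main beta tubulin of dividing cells, stood at 823.2 and 773.9 FPKM against 844.8 and 874.2. Its groups did not overlap, but its change of -0.11 ± 0.06 was not called (limma adjusted p = 0.155, 95% interval -0.24 to 0.02).

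The knockdown libraries carried less summed FPKM, so the calls depend in part on scaling. As deposited, 32.1% of all called genes were higher under knockdown, against 49.5% after scaling by the median log ratio and 46.6% after quantile normalization. Under those scalings Tubb3 changed by -0.57 and -0.51, Tubb2b by -0.44 and -0.35, Tubb2a by -0.40 and -0.28, Tubb4b by -0.32 and -0.20, Tuba1a by -0.20 and -0.11 and Tubb6 by 0.34 and 0.44, and all of these stayed called. Tubb5 stood at -0.02 under each and was not called.

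**Figure D3:**
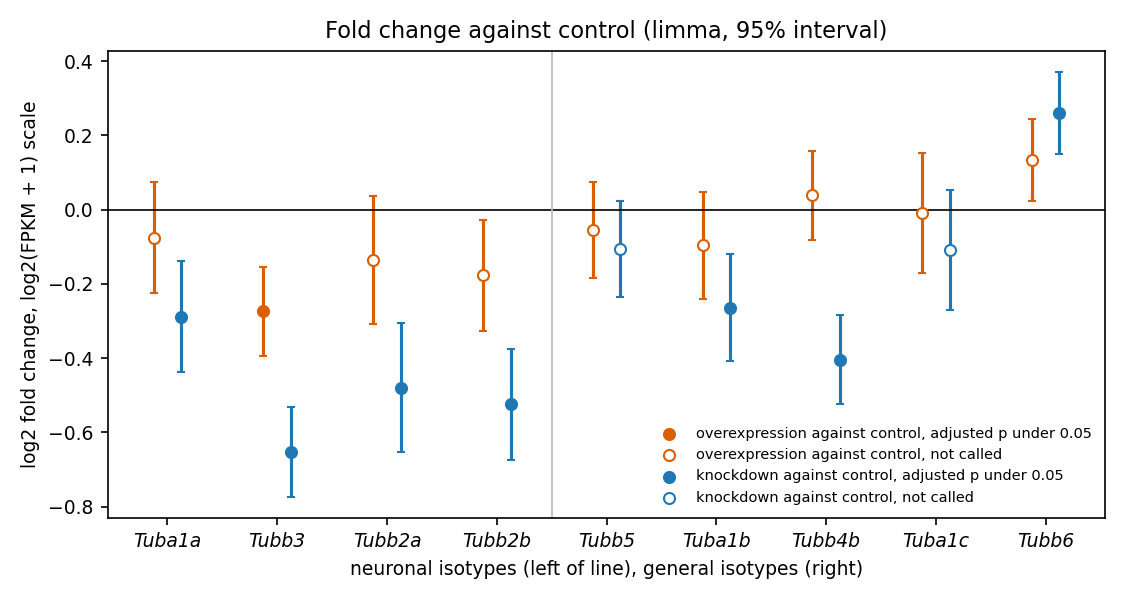
Points give each isotype's log2 fold change against control with its 95% interval from limma, filled where the adjusted p was under 0.05 and open otherwise. Under knockdown the neuronal isotypes lie between -0.65 and -0.29 and Tubb6 at 0.26, and under overexpression only Tubb3 is filled, at -0.27.

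Overexpressing cells were compared with the same control libraries. Tubb3 fell, and the other 8 tested members did not pass the test. Its level was 312.8 and 336.9 FPKM, below both control libraries (396.8 and 388.4), with a mean of 324.8 ± 17.1 FPKM (SD, n = 2) against 392.6 ± 5.93 and a log2 fold change of -0.27 ± 0.05 (limma adjusted p = 0.0470, 95% interval -0.39 to -0.15). Over all tested genes 0.849% were called lower and 0.69% higher, 1.54% in all. The call was lost when any 1 of the 6 libraries was left out. Without control 1 the adjusted p was 0.268, without control 2 0.166, without overexpression 1 0.220, without overexpression 2 0.0599, without knockdown 1 0.0658 and without knockdown 2 0.0650. Its log2 fold change in those fits was -0.33 to -0.22. Quantile normalization also ended the call (limma adjusted p = 0.0567).

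Among the members not called under overexpression, Tubb2b stood at 70.7 and 79.5 FPKM, both below control (limma adjusted p = 0.219, change -0.18 ± 0.07). Tubb6 stood at 95.8 and 98.3 FPKM, both above control (limma adjusted p = 0.212, change 0.13 ± 0.05). Tuba1b was at 449.1 and 471.5 FPKM, both below its control libraries by a small margin (change -0.10 ± 0.06). For these and Tubb3 the groups did not overlap, 3 members lower (26.2% of tested genes) and 1 higher (23.3%). The other 5 overlapped. Tubb2a was at 86.0 and 101.5 FPKM, Tuba1a at 669.6 and 722.7, Tubb4b at 188.6 and 199.3, Tubb5 at 804.4 and 849.7 and Tuba1c at 91.8 and 97.8. The members' median log2 fold change was -0.08 and that of all tested genes -0.0031.

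Overexpression was also set directly against knockdown, to test whether the manipulated groups differed. All 4 tested neuronal isotypes and Tubb4b were higher under overexpression, 5 of 9 members, while 0 members were called lower. Over all tested genes 28.1% were called higher and 12.4% lower, 40.5% in all. Groups did not overlap for 6 members in the higher direction (47.2% of tested genes) and 1 in the lower (24.7%). The difference was 0.38 ± 0.05 for Tubb3 (limma adjusted p = 0.00114), 0.44 ± 0.05 for Tubb4b (6.40e-04), 0.35 ± 0.07 for Tubb2b (0.00403), 0.34 ± 0.08 for Tubb2a (0.00784) and 0.21 ± 0.07 for Tuba1a (0.0308). Tubb6 differed by -0.13 ± 0.05, which was not called (limma adjusted p = 0.0654) as deposited and was called after scaling by the median log ratio (0.00867) and quantile normalization (0.00221). The call of Tuba1a was lost after either scaling (limma adjusted p = 0.118 and 0.0596), without overexpression 2 (0.130), without knockdown 2 (0.216), with moderation along no trend (0.0528) and with low genes kept in (0.117), and that of Tubb2a after quantile normalization (0.0787). Tubb4b stood at 193.9 ± 7.58 FPKM (SD, n = 2) under overexpression, 188.7 ± 4.22 in control cells and 142.4 ± 5.96 under knockdown. The overexpression libraries of Tubb3 lay between its control and knockdown libraries.

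FPKM is per length, so the isotypes of a library can be summed and each expressed as a share that does not move with the library's scaling. With 2 libraries against 2, an exact permutation test cannot give a p below 0.333, so the shares carry no call. Summed beta tubulin was 1704 and 1730 FPKM in control cells, 1558 and 1665 under overexpression and 1461 and 1396 under knockdown. Summed alpha tubulin was 1284 and 1357 FPKM, 1211 and 1292, and 1153 and 1045 in the same order. For knockdown against control the means of both sums differed by -16.8% (exact two-sided permutation p = 0.333 for each). Unlike the shares, these sums move with the library's scaling, and the knockdown libraries carried less summed FPKM over all genes. Relative to each library's summed FPKM, all members together differed by -8.71%. Over the alternative settings the difference was -275.7 to -78.8 FPKM for alpha (-221.5 as deposited) and -320.4 to -153.1 for beta (-288.2 as deposited). The alpha to beta ratio was 0.754 and 0.784 in control cells, 0.777 and 0.776 under overexpression and 0.790 and 0.748 under knockdown, so the ranges of the 3 groups overlapped.

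Tubb3 made up 23.3% and 22.5% of summed beta FPKM in control cells, 20.1% and 20.2% under overexpression and 16.8% and 18.1% under knockdown, with no overlap between the groups (exact two-sided permutation p = 0.333 for each pair). Tubb5 made up 49.6% and 50.5% in control cells, 51.6% and 51.0% under overexpression and 56.4% and 55.4% under knockdown. Tubb6 made up 5.07% and 5.23%, then 6.15% and 5.90%, then 7.41% and 7.45%. Tubb4b was highest under overexpression, at 12.1% and 11.97%, against 10.9% and 11.1% in control cells and 10.03% and 9.89% under knockdown. Tubb2a made up 6.15% and 5.82% in control cells, 5.52% and 6.09% under overexpression and 5.19% and 5.09% under knockdown, so that control and overexpression overlapped. Tubb2b made up 4.99% and 4.897%, then 4.54% and 4.77%, then 4.19% and 4.03%.

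Within alpha tubulin, Tuba1a made up 56.1% and 55.0% of summed alpha FPKM in control cells, 55.3% and 55.9% under overexpression and 54.8% and 54.6% under knockdown. Tuba1c made up 7.04% and 7.40%, then 7.59% and 7.57%, then 8.09% and 8.01%. Since the 3 alpha genes share most of their coding sequence, these shares also depend on how shared reads were divided. The neuronal isotypes together were 43.7% and 42.7% of all 10 members in control cells, 41.1% and 42.0% under overexpression and 38.8% and 38.9% under knockdown. For a pair of genes without shared windows of 100 bases, the ratio of Tubb3 to Tubb6 was 4.59 and 4.29 in control cells, 3.26 and 3.43 under overexpression and 2.27 and 2.43 under knockdown.

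**Figure D4:**
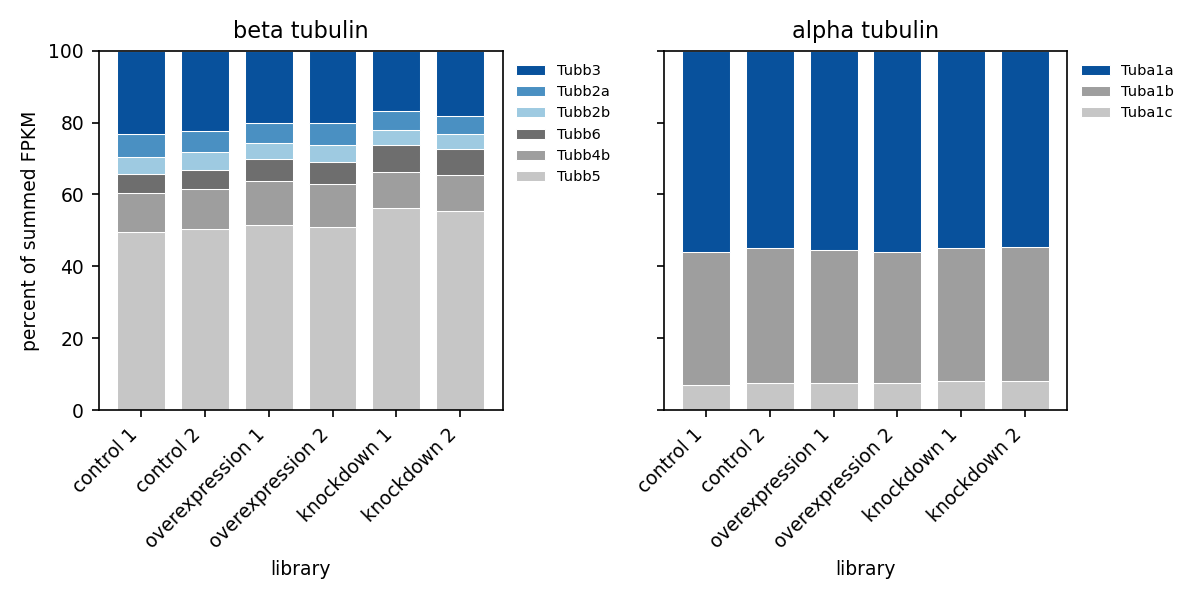
Stacked bars give each isotype's percent of the summed beta (left) and alpha (right) tubulin FPKM in each library, with neuronal isotypes in blue and general ones in grey. The Tubb3 segment narrows from 22.9% of beta tubulin in control cells to 17.5% under knockdown, while the alpha segments stay within 2 percentage points.

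Of 6 other tubulin genes that could be tested, 3 rose and 1 fell under knockdown, with a median log2 fold change of 0.15 (-0.07 over all tested genes, of which 14.8% were higher and 31.3% lower). Tuba8, an alpha tubulin of muscle and testis, stood at 32.2 and 30.7 FPKM against 25.2 and 28.1 in control cells (0.23 ± 0.06, limma adjusted p = 0.0159). Tuba4a, an alpha tubulin encoded without the final tyrosine, stood at 5.05 and 5.57 FPKM against 4.28 and 4.38 (0.24 ± 0.07, adjusted p = 0.0256). Tubg2, the less abundant gamma-tubulin, stood at 6.12 and 6.29 FPKM against 4.58 and 3.603 (0.51 ± 0.10, adjusted p = 0.00329). Tubg1, the main gamma-tubulin, which nucleates microtubules, was called lower at 51.8 and 52.4 FPKM against 56.2 and 59.3 (-0.15 ± 0.05, adjusted p = 0.0360), but not after scaling by the median log ratio (0.297) or quantile normalization (0.770, where it pointed upward). Tubb1 of platelets, Tuba3a, Tuba3b and Tubal3 stood at 0 to 0.145 FPKM in every library. Under overexpression limma called 0 of these 6, with 1 at an unadjusted p under 0.05. Over all tested genes 1.54% were called there, and 1833 of 10721 had an unadjusted p under 0.05.

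New tubulin must be folded by the CCT chaperonin, fed by prefoldin, and joined into dimers by the cofactors TBCA to TBCE. Of 22 tested genes of that machinery 14 fell and 0 rose under knockdown, with a median log2 fold change of -0.20. Over all tested genes the shares were 31.3% lower and 14.8% higher and the median -0.07. Tbca, which holds beta tubulin on its way into the dimer, stood at 202.0 and 181.5 FPKM against 278.0 and 281.0 in control cells (-0.54 ± 0.06, limma adjusted p = 3.86e-04). Tbcb, which holds alpha tubulin, stood at 19.5 and 19.4 FPKM against 30.4 and 28.4 (-0.57 ± 0.05, adjusted p = 1.86e-04). The CCT subunit genes Cct8 (-0.37 ± 0.05) and Cct3 (-0.34 ± 0.05) also fell. After scaling by the median log ratio 10 were lower and 0 higher, where 21.3% of all tested genes were lower and 20.9% higher. After quantile normalization 8 were lower and 2 higher, where 21.4% of all tested genes were lower and 18.7% higher. Under overexpression limma called 0 of the 22, with 1 at an unadjusted p under 0.05. Over all tested genes 1.54% were called there, and 1833 of 10721 had an unadjusted p under 0.05. After quantile normalization 1 of the 22 was called lower, beside 0.672% of all tested genes. Tbca stood at 222.9 and 242.5 FPKM under overexpression, both below control (-0.27 ± 0.06, limma adjusted p = 0.0892).

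Cells also adjust their tubulin RNA to the amount of free tubulin. The ribosome-bound factor TTC5 recognises the first residues of new tubulin and, through SCAPER, brings the CCR4-NOT deadenylase to the RNA. The codons that encode those residues, after the start codon, are shown in capitals for 3 beta isotypes. They are shown because these 3 encode the same residues there with codons that differ in part.
Tubb3: atgAGGGAGATC
Tubb5: atgAGGGAAATC
Tubb2a: atgCGCGAGATC
Of 13 tested genes of this decay route 7 fell and 0 rose under knockdown, beside 31.3% lower and 14.8% higher over all tested genes. The 7 that fell all encode subunits of CCR4-NOT. Ttc5 (change 0.03, limma adjusted p = 0.798) and Scaper (-0.18, adjusted p = 0.166) were not called. Cnot6, a deadenylase subunit, changed by -0.37 ± 0.05 (limma adjusted p = 5.81e-04), Cnot9 by -0.41 ± 0.06 (6.24e-04), Cnot10 by -0.45 ± 0.07 (0.00142) and Cnot3 by -0.36 ± 0.07 (0.00303). After scaling by the median log ratio 6 were lower and 1 higher (21.3% and 20.9% of all tested genes), and after quantile normalization 4 lower and 1 higher (21.4% and 18.7%). Under overexpression limma called 0 of the 13, with 0 at an unadjusted p under 0.05. Over all tested genes 1.54% were called there, and 1833 of 10721 had an unadjusted p under 0.05.

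Of 17 tested genes for enzymes that modify tubulin, 3 fell and 1 rose under knockdown, both smaller shares than the 31.3% lower and 14.8% higher of all tested genes. Vash1, a vasohibin that removes the final tyrosine of alpha tubulin, stood at 17.98 and 18.95 FPKM against 25.9 and 25.8 in control cells (-0.46 ± 0.05, limma adjusted p = 2.84e-04). Ttll3, a glycylase, rose by 0.39 ± 0.10 (adjusted p = 0.0123). Ttll1, a glutamylase subunit, changed by -0.23 ± 0.07 (adjusted p = 0.0282) and Vash2 by -0.14 ± 0.05 (adjusted p = 0.0499). The calls of Ttll1 and Vash2 were lost after scaling by the median log ratio (adjusted p = 0.120 and 0.360) and quantile normalization (0.101 and 0.474). Svbp, the partner of the vasohibins, stood at 2.37 and 1.97 FPKM under overexpression, 1.68 and 1.39 in control cells and 0.957 and 1.19 under knockdown. It was called in neither comparison with control as deposited (limma adjusted p = 0.180 and 0.0552), but lower under knockdown after quantile normalization (0.0287). Between overexpression and knockdown it was called, at 0.61 ± 0.11 (limma adjusted p = 0.00305), beside 28.1% of all tested genes called higher there. Limma called 0 of the 17 under overexpression, beside 1.54% of all tested genes. Of the 17, 5 had an unadjusted p under 0.05, as had 1833 of all 10721 tested genes.

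The genes most like Tubb3 were those with the smallest root mean square distance between centred log2(FPKM + 1) profiles over the 6 libraries, among 5143 genes whose mean reached 10 FPKM. They were Elavl2 (0.0274), an RNA-binding protein of neurons, H3f3b (0.0303), a histone H3.3 gene, Prima1 (0.0310), the membrane anchor of acetylcholinesterase, Prelid1 (0.0363) and Pgrmc1 (0.0366). H3f3b has a partner gene for the same protein and many copies. Elavl2 stood at 21.6 and 21.8 FPKM in control cells, 17.5 and 18.9 under overexpression and 13.7 and 13.4 under knockdown. The nearest member was Tubb2b, at 0.0744, and the farthest Tubb6, at 0.376. Those nearest to Tubb5 were Rpl13 (0.0129), a ribosomal protein gene, Pdia6 (0.0139), Setd3 (0.0139), Orc6 (0.0158) and 3110082I17Rik (0.0165). The distances describe these libraries and carry no test.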

How the data were processed

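The authors deposited FPKM for each gene symbol and library, and 27 rows carry a date in place of a symbol. The tools named, per the submitters' processing notes, were HISAT2, Cufflinks, HTSeq, DESeq and Trimmomatic, with build mm10. Their roles, versions, annotation and filters were not given in the sources used here. Because each library's FPKM is relative to its own total, a change in abundant genes shifts all values. Absolute depth is unknown, so no counting intervals are given. Low values (under 0.05 FPKM) stood in ratios of small whole numbers, within 0.03 on the log2 scale, in 63.2% to 82.7% of rows, which gave relative depths.

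Genes whose mean reached 1 FPKM were tested as log2(FPKM + 1), which understates changes of low genes, with limma 3.58.1 in R 4.3.3. The model had a mean for each of 3 groups and moderation along an expression trend, on 3 residual degrees of freedom, and Benjamini-Hochberg adjustment ran over all 10721 genes. On simulated data for knockdown against control, over 10721 genes with 200 changed, it recovered 39.6% of changes of 0.25, 95.5% of 0.5 and 100% of 1 on the log2 scale, and 7.34% of its calls were unchanged genes. The simulation changed far fewer genes than the 4948 called under knockdown, and its noise was independent for each gene. Its rates may therefore not hold for the measured comparison.

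Sequences, coordinates and shared windows came from GENCODE release M21 (GRCm38). Some sequences and 1 marker gene are not reported here. Members and lists were chosen with earlier results of these data known. All members are named. Of each list up to 4 genes with the smallest p under knockdown and up to 2 under overexpression could be named, and the nearest 5 profiles to Tubb3 and Tubb5. Ttc5 and Scaper were named in addition, because the text introduces their proteins. Alternatives were pseudocounts, filters, scalings, no trend, 4 libraries only, a replicate block and each library left out.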

Additional observations from a re-analysis of the deposited data

How the results depend on the processing

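Under overexpression 165 genes were called, against 9 without a filter on low values, 97 without the expression trend, and 13 to 176 with 1 library left out. The low end was 13 without control 1, then 20 without overexpression 1, 27 without control 2 and 46 without overexpression 2. Tubb3 was the 1 member called lower, and 0 members were called without a filter, after quantile normalization, without the trend, with only the 4 libraries compared, and with any library left out (0 to 0). Of overexpression against knockdown, 1 member was lower after scaling by the median log ratio, beside 17.8% of all tested genes. After quantile normalization 1 member was lower and 3 in place of 5 were higher. The shares of all tested genes there were 15.9% lower and 18% higher. Under knockdown the members called lower numbered 4 to 6 and higher 1 in all 15 alternatives, and 3366 to 4942 genes were called. Signs turned for values that were not called. Under overexpression Tuba1c was 0.013 after quantile normalization and -0.083 to 0.066 with a library left out, and Tubb4b was -0.00070 to 0.079 with a library left out. Under knockdown Tuba1c was 0.091 after quantile normalization. Between overexpression and knockdown Tubb5 was -0.029 after scaling by the median log ratio and -0.069 after quantile normalization, where Tuba1c was -0.078. The cause was not tested. With 1 library left out of a group, the lone library is assumed to vary like the others. Differences between group means kept their sign for both sums, the shares of all 6 tested beta isotypes but Tubb2a, the share of Tuba1c, the neuronal share and the ratio of Tubb3 to Tubb6. With a library left out, the Tubb2a share differed by -0.46 to 0.11 points and that of Tuba1a by -0.46 to 0.66 under overexpression, and that of Tuba1b by -0.36 to 0.41 under knockdown (-0.31 after quantile normalization). The alpha to beta ratio differed by -0.0080 to 0.022 under overexpression, -0.021 to 0.020 under knockdown (0.024 after quantile normalization) and -0.013 to 0.028 between them.

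Deviations of same-numbered libraries from their group means correlated at -0.12, 0.0069 and -0.21 for the 3 pairs of groups. With 2 libraries a group, swapping the numbers in either group of a pair would turn the sign. The correlations therefore cannot show whether equal numbers mark libraries that were prepared together. With the replicate number as a block, 66 genes in place of 165 were called under overexpression, 0 members among them (Tubb3 adjusted p = 0.0945), and 4504 in place of 4948 under knockdown, with the call of Tuba1a between overexpression and knockdown at an adjusted p of 0.0544.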

Other observations

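Of 21 tested genes of microtubule nucleation, which seed microtubules on the gamma-tubulin ring complex, 11 fell and 1 rose under knockdown, with 31.3% of all tested genes lower and 14.8% higher. Tubgcp3, a ring subunit, stood at 10.2 and 10.1 FPKM against 15.3 and 15.5 in control cells (-0.56 ± 0.05, limma adjusted p = 1.86e-04), Mzt1, a small ring subunit, changed by -0.31 ± 0.05 (0.00161) and Akap9, a Golgi and centrosome scaffold, by -0.40 ± 0.08 (0.00333). Tubgcp6, another ring subunit, was the 1 that rose, at 8.23 and 8.09 FPKM against 6.35 and 6.34 (0.32 ± 0.06, limma adjusted p = 0.00409). After scaling by the median log ratio 3 were lower and 2 higher (21.3% and 20.9% of all tested genes), and after quantile normalization 5 and 1 (21.4% and 18.7%).

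Of 13 tested genes that cut or shorten microtubules, 5 fell and 0 rose under knockdown, beside 31.3% lower and 14.8% higher over all tested genes. Spast, the severing enzyme spastin, stood at 6.72 and 6.07 FPKM against 9.34 and 8.70 in control cells (-0.44 ± 0.07, limma adjusted p = 0.00142). The kinesin genes of the mitotic spindle Kif2c (-0.40 ± 0.08), Kif18b (-0.37 ± 0.07) and Kif18a (-0.23 ± 0.06) also fell. After scaling by the median log ratio 3 were lower and 1 higher (21.3% and 20.9% of all tested genes). The call of Kif18a was lost there (limma adjusted p = 0.0805). After quantile normalization 5 were lower and 0 higher (21.4% and 18.7% of all tested genes). Under overexpression limma called 0 of the nucleation genes, with 1 at an unadjusted p under 0.05. It called 0 of the cutting and shortening genes, with 2 at an unadjusted p under 0.05. Over all tested genes 1.54% were called there, and 1833 of 10721 had an unadjusted p under 0.05.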
